A study of Bos taurus with 6 samples.

Results

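Kinesins, centromere proteins and spindle assembly genes were examined in bovine blastocysts produced in vitro. The genes were taken by name from the full table: kinesins with a numbered symbol (KIF), CENP proteins, the NDC80 complex, the checkpoint and Aurora kinases (BUB, TTK, AURK), augmin subunits (HAUS) and the gamma-tubulin genes (TUBG, TUBGCP). The names matched 62 of the 9537 genes in the table, and all 62 were symbols in the RefSeq gene table of the cattle assembly. The name rule also took AURKAIP1, a mitochondrial ribosome protein named for its binding to Aurora A, which is described apart from the others. The 3 libraries titled NV came from embryos with low cryosurvival after vitrification, a cooling so fast that water sets as a glass without ice, and the 3 titled V from embryos with high cryosurvival. All were Bos taurus blastocysts grown in the same standard culture medium. The labels give neither the number of embryos in a library, nor their breed or sex, nor the step, ahead of vitrification or following it, at which RNA was drawn. They also do not say what the codes NV and V mean, so a further difference they may mark cannot be told apart from cryosurvival.

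In dividing cells the spindle is built from microtubules that grow out of gamma-tubulin ring complexes, and augmin places more of these complexes on existing microtubules to amplify them. Mitotic kinesins slide, shorten or carry along those microtubules. CENP proteins mark the centromere and build the kinetochore, whose NDC80 complex holds the microtubule ends, while BUB and TTK kinases delay anaphase until every kinetochore is attached. Other kinesins mainly carry vesicles, organelles or ciliary cargo. A blastocyst is made of cells that are still dividing, so transcripts of all these genes are usual in it.

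The table held 14651477 to 19467022 reads per library, and the values are CPM, reads scaled to a common library size. The summed reads of the 62 genes, not scaled for depth, were 80315, 50302 and 78145 in low libraries 1, 2 and 3, against 75785, 79564 and 77198 in high libraries 1, 2 and 3. Their summed level was 4010, 3778 and 4091 CPM in low libraries 1, 2 and 3. In high libraries 1, 2 and 3 it was 4246, 4172 and 4282 CPM. Low library 2 was the shallowest and it stood apart: its value was the lowest or the highest of the 6 libraries for 6667 genes of the table (69.9%), against 1614 to 4183 genes for each of the others. Blastocyst markers were present in every library, with the trophectoderm keratin KRT8 at 15394 to 21785 CPM in the low and 17590 to 19418 CPM in the high libraries. All 6 trophectoderm markers had negative log2 differences, low minus high, with a median of -0.24 and the groups separated in TFAP2A alone, and their summed level was 25583 to 35546 CPM in low and 29931 to 33127 CPM in high libraries. Of the 4 inner cell mass markers, which summed to 735 to 1004 CPM in low and 790 to 894 CPM in high libraries, NANOG was lower without overlap, at 22.1, 12.2 and 14.3 CPM in low libraries, against 47.3, 31.1 and 37.6 CPM in high libraries (log2 difference -1.23, limma adjusted p = 0.164, and an adjusted p of 0.002 in the authors' deposited table). POU5F1, SOX2 and LIN28A had log2 differences of 0.0038, 0.26 and 0.38, and of the 3 hypoblast markers GATA4 and SOX17 had 0.47 and 0.50 and PDGFRA -0.25, with GATA4 separated. The 3 genes listed as cumulus and granulosa markers summed to 266 to 337 CPM in low and 281 to 380 CPM in high libraries. Most of that sum was HSD3B1, at 245 to 311 CPM in low and 260 to 357 CPM in high libraries. Which cells the HSD3B1 reads came from was not tested, so the sum is not a measure of cumulus or granulosa cells. The log2 differences were -0.20 for HSD3B1, 0.12 for CYP19A1 and -0.21 for FSHR, the last without overlap. The sperm marker TNP1 was at 1.15 to 2.85 CPM in low and 1.63 to 3.08 CPM in high libraries. The part of these markers in the results on the 62 genes was not tested.

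The comparison asked whether the cell division machinery differed between embryos of low and high cryosurvival. By limma on log2(CPM + 1), 0 of the 62 genes passed an adjusted p of 0.05, and 0 of all 9537 genes did (0%). At an unadjusted p below 0.05 there were 4 of the 62 genes, 2 in each direction, against 12.0% of all genes (1142 genes), 6.27% higher and 5.70% lower in low. The augmin subunit HAUS5 and the gamma-tubulin ring subunit TUBGCP5 had the lower means in low cryosurvival embryos, and the transport kinesins KIF5C and KIF3A the higher. None of the 62 genes had an adjusted p below 0.05 in the authors' deposited table, against 1.20% of all genes, and HAUS5 was the nearest at 0.059. Voom, a limma test on the reads worked out from the CPM steps, also called 0 of the 62 and 0 of all genes.

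As a group the 62 genes had more members lower than higher in low cryosurvival embryos. Their median log2 difference, low minus high, was -0.09, with 18 genes higher and 44 lower, while the median of all genes was 0.00023, with 4772 higher and 4765 lower. Without low library 2 the median of the 62 genes was -0.05. Per library, their median deviation from the mean of the high libraries was -0.032, -0.152 and -0.064 in low libraries 1, 2 and 3. It was 0.0035, -0.033 and 0.015 in high libraries 1, 2 and 3, so these medians overlapped between the groups. The libraries of one group lay wholly above or below the other in 13 of the 62 genes, 3 with low above high and 10 with low below high. Over all genes, 10.4% had low above high, 10.6% had low below high and 21.0% had either, so the share of separated genes here is near the background. In 25 of the 62 genes the 95% interval of the difference lay within 0.5 of 0 on the log2 scale. That share was not counted over all genes. Bulk RNA cannot tell fewer dividing cells in an embryo from less of these transcripts per cell.

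**Figure D1:**
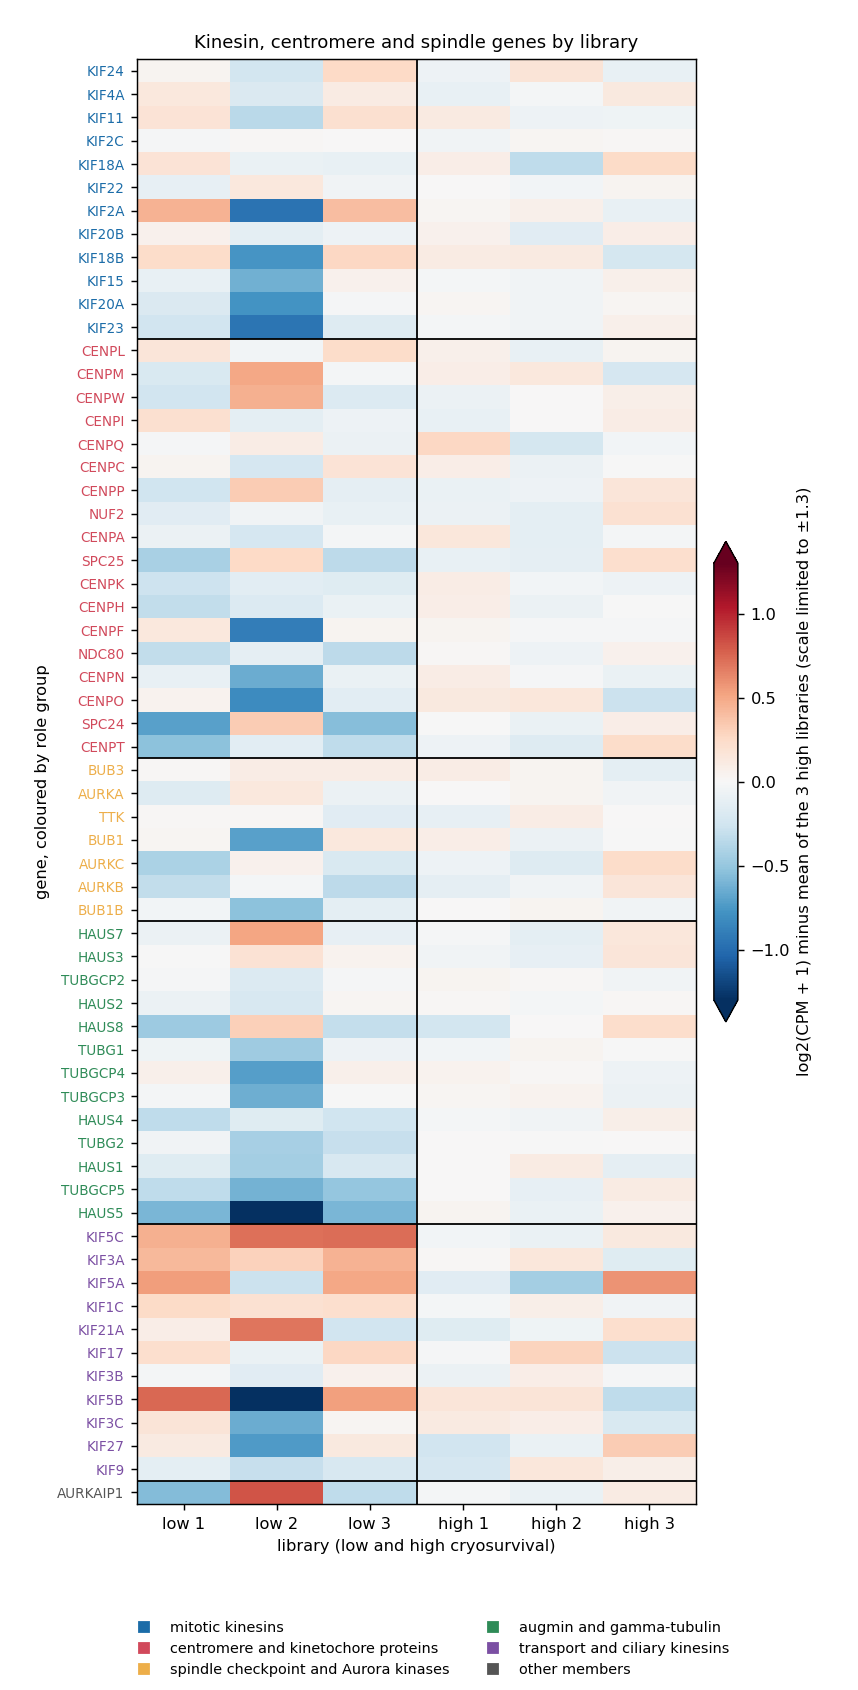
Level of each of the 62 genes in each library, as log2(CPM + 1) minus the mean of the 3 high cryosurvival libraries, grouped by role, with the 3 low libraries at the left and the 3 high libraries at the right. Low library 2 has the deepest blue cells, for HAUS5 and KIF5B, while HAUS5 and TUBGCP5 are blue and KIF5C, KIF3A and KIF1C are red in all 3 low libraries.

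Augmin and the gamma-tubulin ring complex held the largest difference of the whole set. HAUS5, a subunit of the augmin complex, was at 83.6, 41.9 and 83.9 CPM in low libraries 1, 2 and 3, against 130, 119 and 132 CPM in high libraries 1, 2 and 3. The groups did not overlap, and low libraries 1 and 3 were almost equal while low library 2 was at 0.501 times their mean. The means were 69.8 ± 24.1 CPM in low cryosurvival, against 127 ± 6.64 CPM in high (SD, n = 3 each), and the log2 difference was -0.92 with a standard error of 0.27 (limma adjusted p = 0.262). Without low library 2 the log2 difference was smaller, at -0.59, and the limma adjusted p was 0.019. The log2 fold of the authors' deposited table was 0.863 for high over low, with an adjusted p of 0.059.

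TUBGCP5, a subunit of the gamma-tubulin ring complex, was at 35.2, 28.7 and 31.1 CPM in low libraries, against 44.7, 41.3 and 48.0 CPM in high libraries. All 3 low values lay below all 3 high values, at 31.7 ± 3.32 against 44.7 ± 3.33 CPM (SD, n = 3 each). Its log2 difference of -0.49 had a standard error of 0.13 (limma adjusted p = 0.235), and it was -0.42 with an adjusted p of 0.0482 without low library 2.

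The other subunits of both complexes followed HAUS5 and TUBGCP5 only in part. Of the 13 augmin and gamma-tubulin genes, 11 were lower and 2 higher in low cryosurvival embryos, with a median log2 difference of -0.20, which was -0.09 without low library 2. The groups were separated in 6 of the 13 genes, all with low below high: HAUS1, HAUS4, HAUS5, TUBG1, TUBG2 and TUBGCP5. Over all genes, 10.6% had low below high and 21.0% had either order. HAUS1 had means of 19.3 ± 2.08 CPM in low cryosurvival, against 23.4 ± 1.90 CPM in high, and HAUS4 had 26.2 ± 1.70 against 31.2 ± 1.49 CPM, with limma adjusted p values of 0.52 and 0.483. HAUS7 had the largest log2 difference in the other direction, 0.11, at 96.9, 146 and 95.2 CPM in low and 101, 93.8 and 113 CPM in high libraries, so that only low library 2 lay above the high range. HAUS2, HAUS3 and HAUS8 had log2 differences of -0.08, 0.08 and -0.15.

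Gamma-tubulin itself, the protein that seeds microtubules, was at 143, 107 and 142 CPM (TUBG1) in low and 145, 152 and 148 CPM in high libraries. TUBG2, a near-identical copy that may share reads with TUBG1, was at 9.19, 6.76 and 7.54 CPM in low and 9.52, 9.44 and 9.54 CPM in high libraries. In both genes the separation of the groups rested on small gaps between the highest low and the lowest high library. The complex subunits with the most reads were TUBGCP2, at 181, 162 and 180 CPM in low and 187, 185 and 177 CPM in high libraries, and TUBGCP3, at 181, 118 and 183 CPM in low and 188, 191 and 175 CPM in high libraries. For TUBGCP3 and TUBGCP4 the log2 differences of -0.22 and -0.20 became -0.02 and 0.06 without low library 2. Low library 2 was the lowest of all 6 libraries in each of the 6 gamma-tubulin genes, against 35.5% of all genes.

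**Figure D2:**
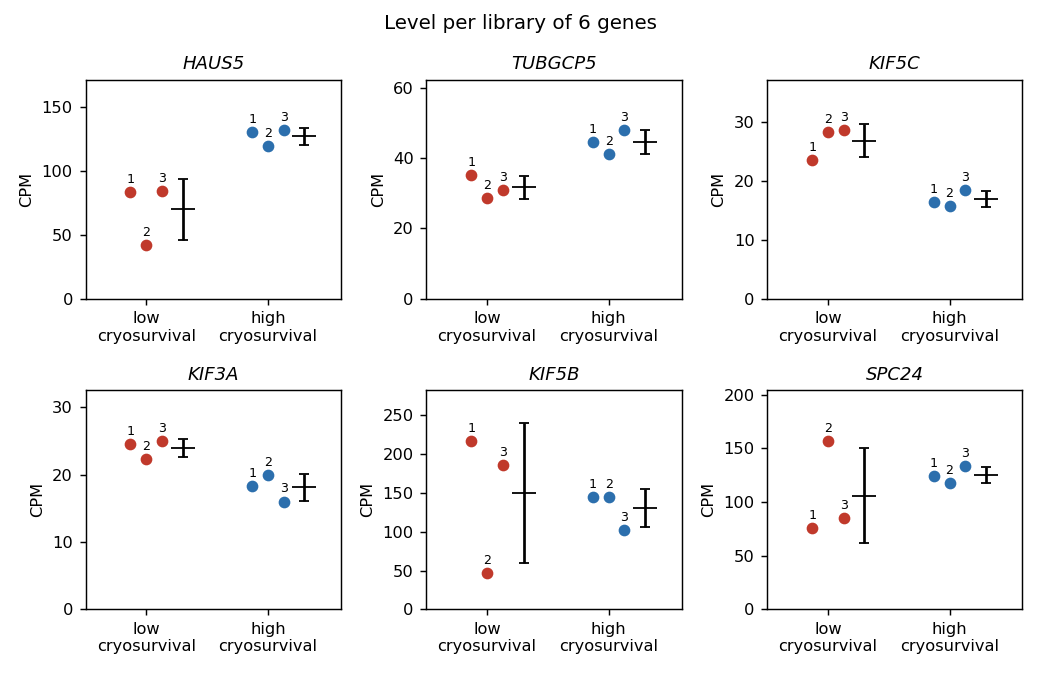
CPM in every library of 6 genes, with the 3 low cryosurvival libraries at the left of each panel and the 3 high ones at the right; numbers are library numbers, and the bars give the mean and SD of each group. HAUS5 and TUBGCP5 have all low libraries below the high ones and KIF5C and KIF3A above them, while in KIF5B and SPC24 low library 2 lies on the opposite side from low libraries 1 and 3.

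Centromere and kinetochore genes were 18 in number, 14 CENP genes, without CENPE, and the 4 subunits of the NDC80 complex. Their median log2 difference was -0.14 (-0.187 without high library 2 and -0.089 without high library 3). In low cryosurvival embryos 5 genes were higher and 13 lower, with 0 called by limma and 0 at an unadjusted p below 0.05. The log2 differences ran from -0.33 for CENPT to 0.12 for CENPL. CENPT, which connects centromeric DNA to the NDC80 complex, was at 79.5, 105 and 91.7 CPM in low and 110, 103 and 136 CPM in high libraries (limma adjusted p = 0.516). Low libraries 1 and 3 lay below every high library, and low library 2 lay just above high library 2.

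All 4 subunits of the NDC80 complex, the microtubule grip of the kinetochore, had negative differences. NDC80 was at 32.9, 38.1 and 32.4 CPM in low and 41.8, 39.4 and 42.9 CPM in high libraries, without overlap (log2 difference -0.26, standard error 0.12, limma adjusted p = 0.486). SPC24 was at 76.1, 157 and 84.9 CPM in low and 124, 118 and 133 CPM in high libraries. Low libraries 1 and 3 thus lay well below every high library and low library 2 above every one. The log2 difference of SPC24 was -0.31 (limma adjusted p = 0.768), and -0.63 without low library 2 (adjusted p = 0.0203). SPC25, its partner at the inner end of the complex, had the same layout at 27.7, 45.1 and 29.4 CPM in low and 35.0, 34.5 and 43.9 CPM in high libraries, and NUF2 was at 44.8, 48.3 and 46.5 CPM in low and 47.4, 45.5 and 57.5 CPM in high libraries.

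CENPF, a large coiled-coil protein of the outer kinetochore, was low in low library 2 alone. It was at 127, 61.3 and 118 CPM in low and 118, 114 and 114 CPM in high libraries, so that leaving out low library 2 moved its log2 difference to 0.08, against -0.25 with it. CENPL had a log2 difference of 0.12 at 12.5, 10.9 and 13.3 CPM in low and 11.7, 10.4 and 11.4 CPM in high libraries. CENPA, the histone variant that marks the centromere, was at 54.1 ± 3.78 CPM in low cryosurvival, against 58.5 ± 5.84 CPM in high, with a log2 difference of -0.11 and a 95% interval from -0.42 to 0.20. The groups were also separated in CENPK and CENPH, both with low below high, with log2 differences of -0.19 each and limma adjusted p values of 0.626 and 0.647. With NDC80 that made 3 of 18 genes, against 10.6% of all genes with low below high and 21.0% with either order. The other CENP genes, CENPC, CENPI, CENPM, CENPN, CENPO, CENPP, CENPQ and CENPW, overlapped between the groups, with log2 differences from -0.30 for CENPO to 0.09 for CENPM.

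Spindle checkpoint and Aurora kinase genes did not separate the groups in any of the 7 measured. Of all genes 21.0% did, and 7 genes are too few to set against that share. The median log2 difference was -0.18 (-0.068, -0.080 and -0.062 without low library 1, low library 2 and high library 3), with 1 gene higher and 6 lower in low cryosurvival embryos and 0 at an unadjusted p below 0.05. BUB3, which carries the BUB kinases to the kinetochore, was at 165, 174 and 174 CPM in low and 174, 167 and 149 CPM in high libraries, a log2 difference of 0.07. BUB1B, which encodes the anaphase inhibitor BUBR1, had the most negative log2 difference, -0.23, at 42.0, 29.4 and 39.3 CPM in low and 43.3, 44.0 and 41.7 CPM in high libraries, and its limma adjusted p was 0.677. Aurora A, the kinase of the spindle poles (AURKA), was at 119, 147 and 126 CPM in low and 134, 136 and 129 CPM in high libraries. The chromosomal kinase AURKB and its close relative AURKC, which may share reads, had log2 differences of -0.23 and -0.18, and BUB1 and TTK had log2 differences of -0.18 and -0.04.

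Mitotic kinesins had the median nearest to 0 of the role groups. The log2 difference of the 12 genes had a median of -0.02 and the range was -0.46 to 0.02, with 4 genes higher and 8 lower, and 0 at an unadjusted p below 0.05. That median was 0.018 without low library 2 and -0.095 without low library 1 or 3. KIF2C, a kinesin that takes microtubules apart at the kinetochore, was at 145, 148 and 146 CPM in low and 141, 149 and 148 CPM in high libraries. Its log2 difference of 0.0024 had a 95% interval from -0.25 to 0.26, the narrowest of the 12. KIF22, which pushes chromosome arms outward, was at 153 ± 13.9 CPM in low cryosurvival, against 153 ± 3.54 CPM in high.

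The groups were separated in 1 of the 12 genes, against 21.0% of all genes in either order. That gene was KIF23, the kinesin of the central spindle and midbody, at 166, 102 and 175 CPM in low and 194, 191 and 207 CPM in high libraries. Its log2 difference was -0.46 with a standard error of 0.22 (limma adjusted p = 0.496), and -0.21 without low library 2 (adjusted p = 0.146). KIF20A, another kinesin needed for cytokinesis and the one with the most reads, was at 244, 162 and 274 CPM in low and 283, 268 and 282 CPM in high libraries, a log2 difference of -0.33 that became -0.10 without low library 2. KIF24 was placed in this group by a list set beforehand, and its part in mitosis was not examined. It had the most positive log2 difference, 0.02, at 23.8, 19.5 and 28.0 CPM in low and 22.1, 26.2 and 21.6 CPM in high libraries. KIF2A, named after its values were seen, turned its direction with 1 library: at 46.6, 16.9 and 44.9 CPM in low and 34.5, 35.6 and 31.6 CPM in high libraries, its log2 difference was -0.04, and 0.42 without low library 2 (limma adjusted p = 0.988 and 0.0355). KIF4A, KIF11, KIF15, KIF18A, KIF18B and KIF20B had log2 differences from -0.22 for KIF15 to 0.02 for KIF4A.

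**Figure D3:**
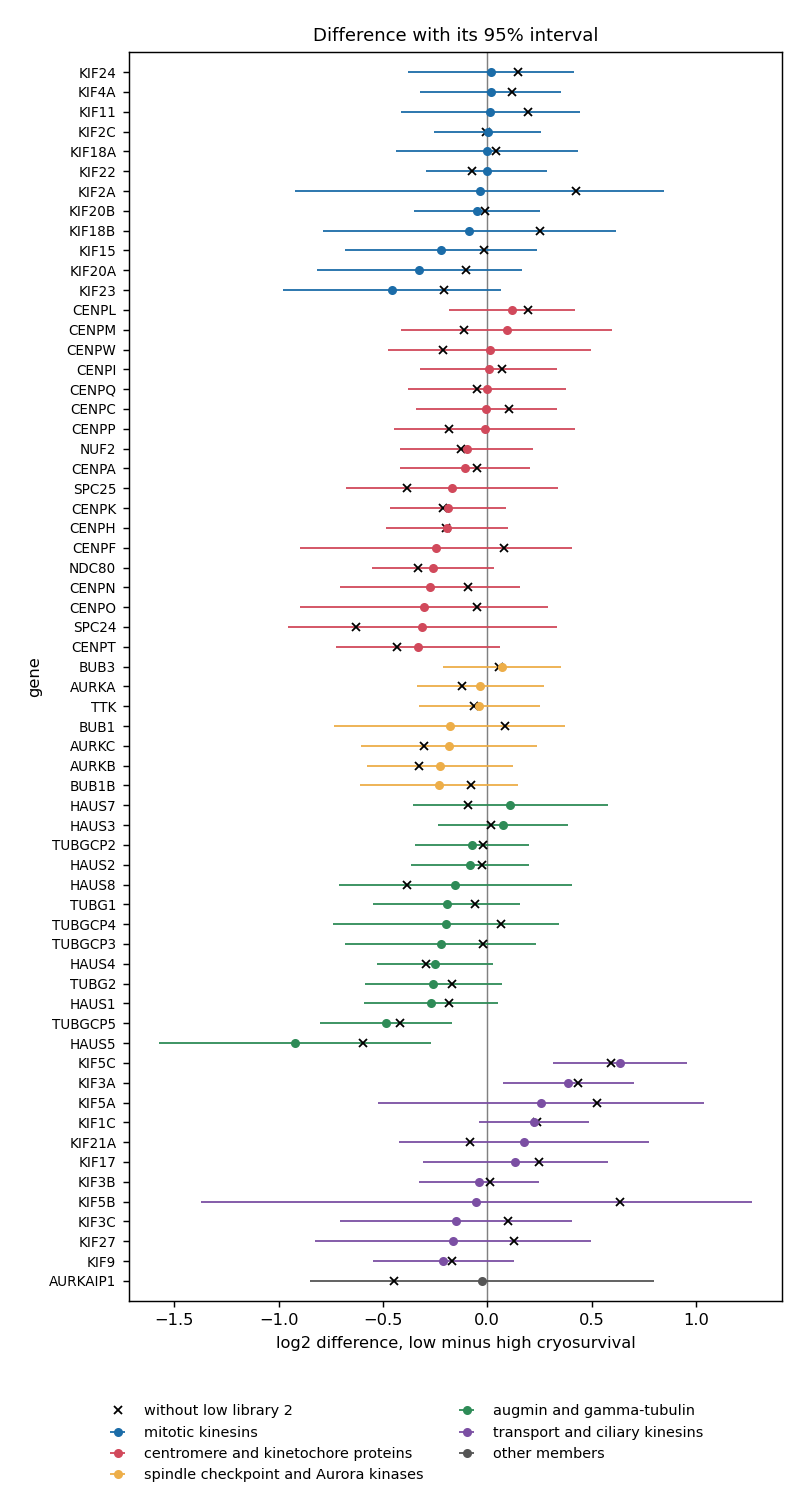
Log2 difference, low minus high cryosurvival, of each of the 62 genes by limma (points, coloured by role group) with its 95% interval (bars), and the difference without low library 2 (crosses). The intervals of HAUS5, TUBGCP5, KIF5C and KIF3A lie off 0. The crosses of KIF5B, KIF2A, AURKAIP1, KIF18B, CENPF, HAUS5 and SPC24 lie far from their points.

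Transport and ciliary kinesins had a median log2 difference of 0.13 over 11 genes, 6 higher and 5 lower in low cryosurvival embryos. That median rested on single libraries: it was 0.004 without high library 3, 0.037 without high library 2, 0.066 without low library 3 and 0.236 without low library 2. KIF17 and KIF5A had means below 5 CPM, and without them the median was -0.04. KIF5C, a heavy chain of kinesin-1, best known from neurons, had the smallest p of the 62 genes. It was at 23.6, 28.2 and 28.5 CPM in low libraries, against 16.4, 15.8 and 18.5 CPM in high libraries, with every low library above every high one. The means were 26.8 ± 2.79 CPM in low cryosurvival, against 16.9 ± 1.41 CPM in high (SD, n = 3 each), a low over high ratio of 1.59 (log2 difference 0.63, standard error 0.13, limma adjusted p = 0.169). Leaving out any 1 library kept the log2 difference between 0.59 and 0.72, and the adjusted p was 0.0318 without low library 2. The authors' deposited table gave KIF5C a log2 fold of -0.666 for high over low and an adjusted p of 0.146.

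KIF3A, a motor subunit of the kinesin-2 that serves cilia, was at 24.5, 22.4 and 25.0 CPM in low libraries, against 18.3, 20.03 and 16.03 CPM in high libraries. The groups did not overlap, at 24.0 ± 1.40 against 18.1 ± 2.01 CPM (SD, n = 3 each), and the log2 difference of 0.39 had a standard error of 0.13 (limma adjusted p = 0.315). Its motor partners overlapped between the groups. KIF3B was at 18.7 ± 1.36 CPM in low cryosurvival, against 19.2 ± 1.16 CPM in high, and KIF3C at 17.3 ± 5.06 against 18.8 ± 2.31 CPM. KIF1C, a carrier of vesicles and messenger RNAs, was the third gene with low above high, at 143, 138 and 140 CPM in low and 118, 126 and 116 CPM in high libraries (log2 difference 0.22, limma adjusted p = 0.51). These are 3 of only 11 genes, and of all genes 10.4% had low above high and 21.0% had either order.

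KIF5B, the kinesin-1 heavy chain found in most tissues, had the widest spread of the 62 genes. It was at 217, 47.2 and 186 CPM in low libraries, against 144, 145 and 102 CPM in high libraries, so that low libraries 1 and 3 lay above every high library and low library 2 below every one. Its log2 difference was -0.05 with a 95% interval from -1.37 to 1.27, and it was 0.64 without low library 2 (limma adjusted p = 0.988 and 0.0562). KIF9, a kinesin of motile cilia, had the most negative log2 difference of this group, -0.21, at 5.29, 4.58 and 4.92 CPM in low and 4.87, 6.61 and 6.21 CPM in high libraries. KIF5A, KIF17, KIF21A and KIF27 overlapped between the groups, with log2 differences from -0.16 for KIF27 to 0.26 for KIF5A, and KIF5A rests on few reads, at 0.526 to 1.70 CPM in low and 0.367 to 1.77 CPM in high libraries.

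AURKAIP1 was at 121, 317 and 143 CPM in low and 176, 169 and 194 CPM in high libraries. Low library 2 was at 2.40 times the mean of the other low libraries, the largest such ratio of the 62 genes. The log2 difference was -0.03 (limma adjusted p = 0.989), and -0.45 without low library 2 (adjusted p = 0.048).

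Low library 2 lay at one end of the 6 libraries in most of these genes, as it did in the table at large. It was the lowest of the 6 libraries in 30 of the 62 genes (48.4%) and the highest in 12 (19.4%), while over all genes it was the lowest in 35.5% and the highest in 34.4%. In 15 of the 62 genes it was below 0.67 times the mean of low libraries 1 and 3, and in 8 it was above 1.5 times. The lowest ratios were those of KIF5B (0.234), KIF5A (0.317), KIF2A (0.370), KIF18B (0.486) and HAUS5 (0.501), and after AURKAIP1 the highest were those of SPC24 (1.95), KIF21A (1.72), HAUS8 (1.64) and CENPW (1.61), all named after their values were seen. The difference between the groups had the other sign without this library in 17 of the 62 genes. The counts of 15, 8 and 17 were not taken over all genes, so they have no background beside them. A length index was taken as the median log2(CPM + 1) of 37 genes of long messenger RNA less the same median over 56 of short messenger RNA. The index was 0.47, -1.97 and 0.20 in low libraries 1, 2 and 3, against -0.34, -0.34 and -0.57 in high libraries 1, 2 and 3. It was lowest in low library 2, while low libraries 1 and 3 lay above every high library. Without low library 2 the group and this index therefore cannot be told apart.

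**Figure D4:**
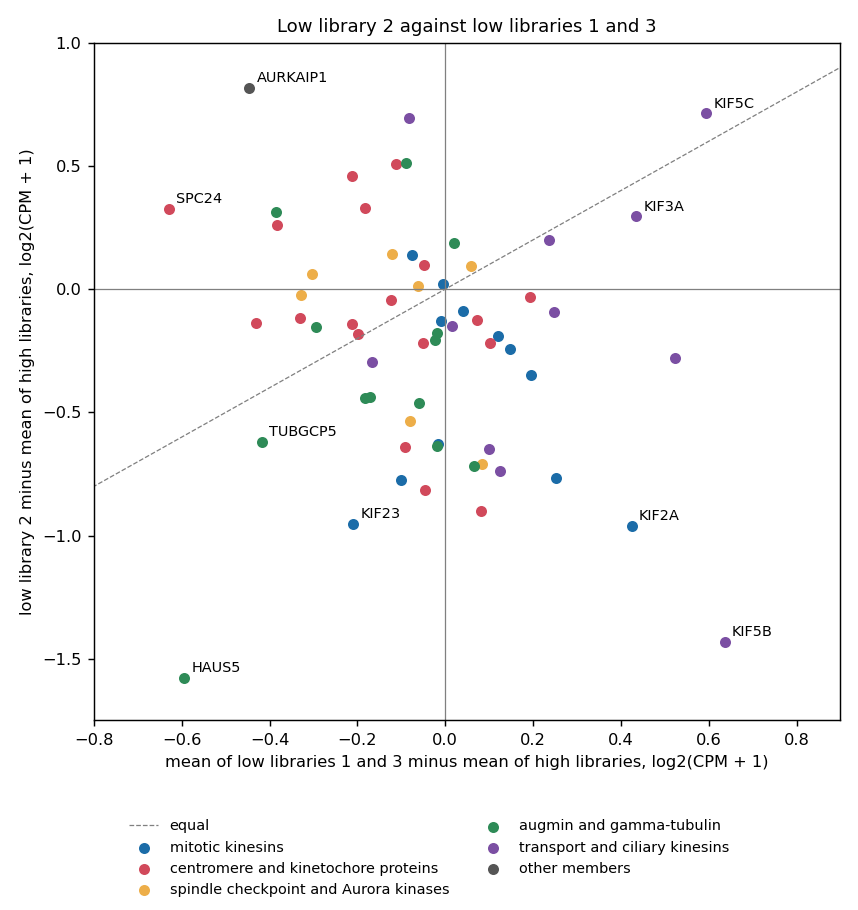
For each of the 62 genes, low library 2 minus the mean of the high libraries (vertical axis) against the mean of low libraries 1 and 3 minus the mean of the high libraries (horizontal axis), both as differences in log2(CPM + 1), coloured by role group; the dashed line marks equal values. HAUS5, TUBGCP5 and KIF23 are negative and KIF5C and KIF3A positive on both axes, while KIF5B and KIF2A lie at the lower right and SPC24 and AURKAIP1 at the upper left.

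Without low library 2, limma called 7 of the 62 genes, 3 higher in low (KIF5C, KIF3A and KIF2A) and 4 lower (HAUS5, TUBGCP5, SPC24 and AURKAIP1). Of all genes, 13.6% were called in that test, 8.15% higher and 5.48% lower, so the share among the 62 genes did not exceed the background. The length index separates the groups once low library 2 is left out, so these calls cannot be told apart from it. With the length index as a covariate in a fit to all 6 libraries, a model taken up with these results known, 6 of the 62 genes were called, KIF5C and KIF3A higher and HAUS5, TUBGCP5, SPC24 and KIF23 lower in low, against 14.1% of all genes, 6.99% higher and 7.09% lower. Called by both were 5 genes: KIF5C, KIF3A, HAUS5, TUBGCP5 and SPC24. The share of all genes called by both was not counted, so these 5 have no background beside them. Both tests share most of their libraries, and the index was computed on this same table and is lowest in low library 2. The tests are thus not independent of each other, and a call by both is not separate support.

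Genes of mitosis outside the name rule were read from 3 further lists, and limma on all 6 libraries without covariate called 0 of them. Without low library 2 it called 0 of 23 regulators, 1 of 20 kinetochore genes (lower) and 1 of 29 spindle microtubule genes (higher). Of all genes, 13.6% were called there. With the length index it called 2 regulators and 5 kinetochore genes, all lower, and 1 spindle microtubule gene in each direction. Of all genes, 6.99% were called higher and 7.09% lower with the index. Among 23 regulators of mitotic entry and exit the median log2 difference was -0.04, with 9 higher and 14 lower. That median was 0.030 without low library 1, -0.014 without low library 2 and -0.062 without high library 2. CDK1, the kinase that starts mitosis, was at 46.7 ± 8.16 CPM in low cryosurvival, against 48.5 ± 2.32 CPM in high, and the spindle kinase PLK1 at 168 ± 9.29 against 167 ± 3.17 CPM. Of this list LIN54, which binds the promoters of cell cycle genes, had the smallest p (limma adjusted p = 0.619), at 21.9, 6.68 and 24.1 CPM in low and 28.0, 26.01 and 24.3 CPM in high libraries. The next was FZR1, an activator of the anaphase-promoting complex, at 51.5, 30.7 and 53.1 CPM in low and 51.9, 58.9 and 48.1 CPM in high libraries, and its log2 difference of -0.26 (limma adjusted p = 0.767) was -0.01 without low library 2.

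The list of 20 kinetochore and chromosomal passenger genes lay at a median of -0.07 on the log2 scale, with 8 higher and 12 lower, and 4 at an unadjusted p below 0.05, each lower in low cryosurvival embryos (the median was -0.116 without low library 2); of all genes, 5.70% were lower at that p. The smallest p belonged to SGOL2, a shugoshin that guards centromeric cohesion, at 77.4, 64.3 and 76.9 CPM in low libraries, against 105, 90.5 and 108 CPM in high libraries (log2 difference -0.47, standard error 0.14, limma adjusted p = 0.262). ITGB3BP, which encodes the centromere protein CENP-R, followed at 5.96 ± 0.942 CPM in low cryosurvival, against 8.44 ± 0.603 CPM in high (limma adjusted p = 0.285), and the other genes at that p were SKA2 and ZWINT, named after their values were seen. The list of 29 spindle microtubule genes lay at a median of -0.06 on the log2 scale, with 9 higher and 20 lower and 0 at an unadjusted p below 0.05. That median was 0.015 without low library 2, -0.118 without low library 3 and -0.034 without high library 1. KLC2, a light chain of kinesin-1, was the first of this list by p, at 139, 204 and 135 CPM in low libraries, against 116, 124 and 112 CPM in high libraries (log2 difference 0.42, limma adjusted p = 0.44), and PLK4, the kinase of centriole duplication, the second, with a log2 difference of -0.29 (adjusted p = 0.558).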

How the data were processed

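RNA was sequenced from 6 libraries of bovine blastocysts, 3 of low and 3 of high cryosurvival, grouped by the labels. Per the labels' protocols, total RNA was column-purified and DNase-treated, with an RNA integrity number of at least 7.7. Per the submitters' processing notes, which give no roles, the tools included HTSeq 0.5.4p2, TopHat2 2.0.8 with Bowtie2 2.1.0, DESeq 1.12.1, SAMtools 0.1.18 and Cufflinks 2.1.1. Not given in the sources used here: build, annotation, low-value filter and strand use. Reads of overlapping genes thus cannot be told apart. The authors deposited CPM of a scaled library size, a log2 fold of high over low, and p-values of an unnamed test. The CPM unit was worked out from the values: up to 1000 CPM, 100% were whole multiples of a single step that differs by library (tolerance 0.05 read). CPM is not scaled to transcript length, so levels were not compared between genes. The labels do not say whether libraries came from separate cultures, so p-values reflect the spread among these 6 samples alone, possibly a technical one.

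R 4.3.3 with limma 3.58.1 tested all 9537 genes on the scale log2(CPM + 1), low minus high, without covariate, with Benjamini-Hochberg adjustment over all genes at 0.05; with this pseudocount, differences of low genes are understated. The code was tested on simulated data. An exact permutation test of 3 against 3 cannot go below 0.1 and was not used. The genes, role groups and further lists were chosen with earlier results of these data known. Values in every library are given for genes called or with an unadjusted p below 0.05 and, per role group, for the 2 with most reads and those with the extreme differences; from each further list the 2 genes with the smallest p are given. Other genes with values, NDC80, CENPA, CDK1 and PLK1 among them, were added after their values were seen, to complete a group. Alternatives were a pseudocount of 0.1, a minimum mean of 5 CPM, TMM rescaling, an intensity trend, each library left out, the replicate number as a block, voom on the recovered reads and the length index, whose gene sets were written from general knowledge.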

Additional observations from a re-analysis of the deposited data

How the results depend on the processing

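Limma called 0 genes, and 7 with a pseudocount of 0.1 or with a minimum mean of 5 CPM, 0 of them among the 62 genes. With the length index as covariate it called 1343 genes and 6 of the 62, and 21 of the 62 had an unadjusted p below 0.05, against 4 without it. The share of all genes at that p was counted only in the limma test on all 6 libraries without covariate (12.0%). The counts at that p in the other fits thus have no background beside them. Over the fits that left out 1 library, the count ran from 0 to 1300 over all genes, from 0 to 7 among the 62 and from 3 to 15 at an unadjusted p below 0.05, the highest each time without low library 2. Those fits gave median log2 differences from -0.123 to -0.049 for the 62 genes, from -0.095 to 0.018 for mitotic kinesins, from 0.004 to 0.236 for transport and ciliary kinesins, from -0.118 to 0.015 for the spindle microtubule list, from -0.215 to -0.062 for checkpoint and Aurora kinase genes, from -0.266 to -0.090 for augmin and gamma-tubulin, from -0.062 to 0.030 for regulators of mitotic entry and exit and from -0.116 to -0.060 for the further kinetochore genes. For centromere and kinetochore genes those medians ran from -0.187 to -0.089. The median of transport and ciliary kinesins was -0.039 with a minimum mean of 5 CPM, since KIF17 and KIF5A drop out. KIF2A had a log2 difference of 0.424 without low library 2, and from -0.281 to -0.002 with any other library left out. TMM rescaling, the intensity trend and voom each left the 62 genes with 0 calls and 4 at an unadjusted p below 0.05. HAUS5, TUBGCP5, KIF5C and KIF3A kept their sign in all 14 fits. Genes with small differences, such as BUB3 and TUBGCP2, did so too, so a kept sign does not set those genes apart. The planned edgeR and DESeq2 fits were not run, and voom was the only test on the reads worked out from the CPM steps. The planned index by protein length was not made either. With the replicate number as a block, limma called 0 genes and 0 of the 62, and 3 of the 62 had an unadjusted p below 0.05. Deviations of same-numbered libraries correlated at 0.12, -0.26 and -0.31, and those of differently numbered libraries at -0.36 to 0.37. Deviations from a mean of 3 libraries depend on each other, so these values cannot decide whether the numbers pair the samples. KIF5A and KIF17, with under 5 CPM, are the genes whose precision depth limits most.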

Other observations

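Partners of the transport motors were also measured. The kinesin-1 light chain KLC1 was at 50.5 ± 3.14 CPM in low cryosurvival, against 45.8 ± 1.17 CPM in high (SD, n = 3 each), with limma adjusted p = 0.754, and KLC3 at 2.02 ± 0.494 against 2.23 ± 0.248 CPM. KIFAP3, which joins the kinesin-2 motor of KIF3A to its cargo, was at 12.4 ± 2.22 CPM in low cryosurvival, against 10.8 ± 1.97 CPM in high, with a log2 difference of 0.18 and limma adjusted p = 0.808. ASPM, a protein of the spindle poles, had the layout of KIF2A and KIF5B, at 59.7, 22.6 and 55.2 CPM in low libraries, against 42.5, 37.5 and 36.6 CPM in high libraries. Its log2 difference was 0.12 with all libraries and 0.55 without low library 2 (limma adjusted p = 0.954 and 0.0261). CLASP1, which steadies microtubule ends at the kinetochore, was at 107, 49.9 and 105 CPM in low and 109, 119 and 104 CPM in high libraries, so that its log2 difference of -0.41 became -0.05 without that library. These genes were named after their values were seen.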
